A study of Mus musculus with 8 samples.

Results

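The let-7 family and its close relative miR-98 were followed in small RNA libraries of sorted mouse Kupffer cells, which are liver macrophages. Members were the entries of the deposited table whose names carry the stems mmu-let-7a, mmu-let-7b, mmu-let-7c, mmu-let-7d, mmu-let-7e, mmu-let-7f, mmu-let-7g, mmu-let-7i or mmu-miR-98, with any arm or suffix. The species prefix is left out below. This rule gave 21 of 1234 entries, which held 20 of 1193 different sequences. Of the 20 sequences, 9 came from the 5p arm of the hairpin and 11 from the 3p arm, and all 9 stems were found. The entries let-7a-5p and let-7c-5p_1ss19GA held 1 and the same sequence, and their reads are given here under let-7a-5p.

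The animals were male mice lacking Trem2 (Trem2-/-, called KO here) and wild-type (WT) littermates. Trem2 encodes a lipid-sensing receptor of macrophages. Both genotypes were given a high-fat diet from 8 weeks of age for 8 weeks, and no group on another diet was analysed here. The KO libraries came from animals 88, 90, 40 and 46 and the WT libraries from animals 80, 82, 35 and 37, so each genotype had 2 animals numbered 80 to 90 and 2 numbered 35 to 46. The labels do not say what the number ranges mean.

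The let-7 miRNAs were discovered in the nematode Caenorhabditis elegans as regulators of developmental timing, and in mammals they accumulate as cells differentiate. They repress messenger RNAs of growth and cell cycle regulators, among them Lin28, Hmga2 and Ras family genes, and the LIN28 proteins in turn bind let-7 precursors and block their maturation. In macrophages, let-7 members have been described as repressors of Toll-like receptor 4 and of the cytokine interleukin 6. Target choice rests mainly on the seed, bases 2 to 8 of the mature strand, so members with the same seed can act on overlapping sets of messenger RNAs.

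The mature 5p sequences are shown because each carries the same seed, and because the members differ from one another at few other bases, which bears on how reads were assigned to them. They are RefSeq sequences (GRCm38.p6), written 5′ to 3′, with the seed in capitals.
let-7a-5p: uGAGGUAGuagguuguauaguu
let-7b-5p: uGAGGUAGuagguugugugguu
let-7c-5p: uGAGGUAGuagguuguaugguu
let-7d-5p: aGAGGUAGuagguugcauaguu
let-7e-5p: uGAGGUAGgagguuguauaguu
let-7f-5p: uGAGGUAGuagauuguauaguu
let-7g-5p: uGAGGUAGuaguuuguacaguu
let-7i-5p: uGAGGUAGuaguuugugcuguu
miR-98-5p: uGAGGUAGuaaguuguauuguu
Differences are counted from 1 at the 5′ end, with the base of let-7a-5p first. A single base set apart let-7c-5p (A19G), let-7e-5p (U9G) and let-7f-5p (G12A). The miRNA let-7d-5p differed by U1A and U16C, let-7b-5p by A17G and A19G, let-7g-5p by G12U and U18C, and miR-98-5p by G11A and A19U. The most distant was let-7i-5p, with G12U, A17G, U18C and A19U. The seed was found in 9 of the 9 deposited 5p sequences and in 0 of the 11 deposited 3p sequences, and the 9 deposited 5p sequences equalled RefSeq.

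The 3p strands are the partners of the 5p strands in the hairpin and usually the less abundant ones. The 3 shown here are those with a mean of at least 100 CPM (counts scaled to a library total of 1e6, with TMM normalization factors), again from RefSeq and with no seed marked.
let-7d-3p: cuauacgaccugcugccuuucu
let-7c-2-3p: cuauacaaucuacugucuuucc
let-7i-3p: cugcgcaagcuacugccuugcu
Relative to RefSeq, 3 of the 11 deposited 3p sequences carried C22U (RefSeq base first), among them let-7c-2-3p_1ss22CT, the form of let-7c-2-3p with that level. The RefSeq sequence of let-7c-2-3p is also that of let-7a-1-3p, so reads of this strand cannot be assigned to 1 of the 2 hairpins. The deposited let-7i-3p_R-1 lacks the last base.

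The hairpins lie at several loci (RefSeq, GRCm38.p6; host genes from GENCODE vM21). On the minus strand of chromosome 13, Mirlet7d (48536012 to 48536114), Mirlet7f-1 (48537829 to 48537917) and Mirlet7a-1 (48538179 to 48538272) overlap exons of the long noncoding RNA gene 6720427I07Rik. The gaps between them are 1714 and 261 bases. On the plus strand of chromosome 15, Mirlet7c-2 (85706603 to 85706697) and Mirlet7b (85707319 to 85707403) overlap exons of Lncppara. On the plus strand of chromosome X, Mirlet7f-2 (151912346 to 151912428) and Mir98 (151913214 to 151913321) lie in introns of Huwe1. Single family hairpins are Mirlet7g in an intron of Wdr82 (chromosome 9, 106178840 to 106178927, plus strand) and Mirlet7i, overlapping an exon of D630033A02Rik (chromosome 10, 122985640 to 122985724, minus strand). Mirlet7e lies in an intron of Spaca6 (chromosome 17, 17830352 to 17830444, plus strand). Mirlet7a-2 (chromosome 9, 41536716 to 41536811, plus strand) and Mirlet7c-1 (chromosome 16, 77599657 to 77599750, plus strand) lie in introns of noncoding RNA genes. The 5p sequences of let-7a, let-7c and let-7f are each encoded by 2 hairpins at different loci, and their counts do not tell the loci apart.

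Total expected counts ranged from 2129942 to 9443992 per library, so that 3 counts corresponded to 0.318 to 1.41 CPM. Over 607 tested sequences, the leading principal component (54.8% of the variance) placed animals 80 to 90 on one side and animals 35 to 46 on the other, whatever their genotype. All 6 miRNAs of a macrophage and myeloid list were detected, with a summed level of 92012 to 170402 CPM. Hepatocyte miRNAs summed to 9103 to 40833 CPM in 7 libraries and to 139531 CPM in WT library 37. Trem2 messenger RNA is not measured by small RNA sequencing, so the genotype labels could not be checked on the deleted gene.

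The family was among the abundant miRNAs of these cells. Its 5p arms took 12.6% and 11.6% of all counts in KO libraries 88 and 90, and 5.27% and 4.63% in KO libraries 40 and 46. They took 9.51% and 9.39% in WT libraries 80 and 82, and 5.20% and 3.41% in WT libraries 35 and 37. The Wilson 95% interval of the highest share was 12.5% to 12.6%, which covers counting error within 1 library only and not the spread between animals. Reads carried no molecular identifiers, so copies of 1 molecule counted as separate reads and the interval can be too narrow. Libraries of animals 80 to 90 all lay above those of animals 35 to 46, while KO and WT libraries overlapped. The mean share was 8.51% ± 4.14 in KO and 6.88% ± 3.06 in WT libraries (SD, n = 4 each). The 3p arms together took 0.224% to 0.697% of the counts.

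By mean level over the 8 libraries, the order was let-7g-5p, let-7f-5p, let-7a-5p, let-7i-5p and let-7d-5p, then let-7d-3p, let-7b-5p, let-7c-5p and miR-98-5p, and then let-7c-2-3p_1ss22CT, let-7e-5p and let-7i-3p_R-1. The highest, let-7g-5p, ranked 8 among all sequences of the table, and let-7f-5p ranked 10. Among the 5 leading 5p members the spread between libraries exceeded the step between neighbours, so their order by mean is not resolved and differed between libraries. Levels of different miRNAs are compared here per read, on sequences of 21 or 22 bases, and the ligation step of library making can favour some sequences over others.

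The level of let-7g-5p was 24811 and 28965 CPM in KO libraries 88 and 90 and 22300.3 and 14672 CPM in KO libraries 40 and 46, against 29152 and 19218 CPM in WT libraries 80 and 82 and 16466 and 13004 CPM in WT libraries 35 and 37. For let-7f-5p the values were 26854, 29062, 11615 and 9722 CPM in KO libraries 88, 90, 40 and 46, against 26574, 17506, 11869.6 and 10012 CPM in WT libraries 80, 82, 35 and 37. In both genotypes let-7f-5p was lower in the animals numbered 35 to 46, with no overlap between the ranges. Within animals 80 to 90 both KO libraries lay above both WT libraries for let-7f-5p, by a small margin over WT library 80. Splits of genotypes within a range, here and below, rest on few libraries and can arise by chance. Their share over all tested sequences was not counted. No member passed an adjusted p of 0.05 between genotypes within animals 80 to 90 (edgeR). The ranges overlapped for let-7g-5p, where KO library 40 lay above WT library 82.

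The contrast between ranges was wider for let-7a-5p and let-7d-5p. Their hairpins on chromosome 13, Mirlet7a-1 and Mirlet7d, flank Mirlet7f-1 (let-7a-5p also comes from Mirlet7a-2). The miRNA let-7f-5p, with the smaller contrast given above, is encoded by Mirlet7f-1 and by Mirlet7f-2. For let-7a-5p the values were 24034, 26422, 5585 and 3987 CPM in KO libraries 88, 90, 40 and 46, against 22455, 16083, 5877 and 3821 CPM in WT libraries 80, 82, 35 and 37. For let-7d-5p they were 14844, 16243.5, 2797 and 2486 CPM in the KO libraries in the same order, against 15615, 10350.4, 3202 and 1789.5 CPM in the WT libraries. The lowest library of animals 80 to 90 stood far above the highest of animals 35 to 46 for both. In animals 80 to 90 both KO libraries lay above both WT libraries for let-7a-5p, and otherwise the genotypes overlapped within the ranges.

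A different pattern was seen for let-7i-5p, which is encoded by 1 hairpin. Its level was 9391, 11427, 14317 and 10599.9 CPM in KO libraries 88, 90, 40 and 46, against 12747, 8475, 10283 and 8147 CPM in WT libraries 80, 82, 35 and 37. Neither the genotypes nor the number ranges separated, and the highest and the lowest library both belonged to animals 35 to 46. Within that range both KO libraries lay above both WT libraries, by a small margin over WT library 35.

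Of the less abundant 5p members, let-7b-5p stood at 1845, 2165, 1648 and 925 CPM in KO libraries 88, 90, 40 and 46, against 1948, 1765, 1393 and 1353 CPM in WT libraries 80, 82, 35 and 37. In the same order let-7c-5p stood at 2162, 2453, 915 and 596 CPM in KO libraries, against 2106, 1704, 942 and 621 CPM in WT libraries. Both were higher in every library of animals 80 to 90 than in any of animals 35 to 46, by a narrow margin for let-7b-5p. In animals 80 to 90 the genotypes overlapped for let-7b-5p, while both KO libraries were above both WT libraries for let-7c-5p. The level of miR-98-5p was 1003, 1126, 895 and 668 CPM in KO libraries 88, 90, 40 and 46, against 1076, 645, 732 and 531 CPM in WT libraries 80, 82, 35 and 37, and the ranges overlapped through WT library 82. The lowest 5p member was let-7e-5p, with 425, 407, 160.2 and 142 CPM in KO libraries 88, 90, 40 and 46, against 275, 329, 177 and 142 CPM in WT libraries 80, 82, 35 and 37. Here the ranges did not overlap, and within animals 80 to 90 both KO libraries lay above both WT libraries. How often all tested sequences split in this way within a range was not counted, so no genotype effect is read from it.

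The most abundant 3p strand was let-7d-3p, whose mean lay above those of 4 of the 9 members of the 5p arm. It stood at 2722, 3453, 2048 and 2105 CPM in KO libraries 88, 90, 40 and 46, against 4280.3, 5093, 2087 and 2053 CPM in WT libraries 80, 82, 35 and 37. The 4 libraries of animals 35 to 46 were almost alike, at 2073 ± 27.3 CPM (SD). Within animals 80 to 90 both WT libraries lay above both KO libraries, a split that was not set against all tested sequences. For let-7c-2-3p_1ss22CT the values were 333, 419, 173 and 196 CPM in the KO libraries in that order, against 458, 300.1, 213 and 233 CPM in the WT libraries, with the ranges apart. Both WT libraries lay above both KO libraries in animals 35 to 46. For let-7i-3p_R-1 the order of the ranges was turned round. It stood at 35.1, 37.1, 157 and 249 CPM in KO libraries 88, 90, 40 and 46, against 32.5, 19.9, 181 and 187 CPM in WT libraries 80, 82, 35 and 37. Both KO libraries lay above both WT libraries in animals 80 to 90, by a small margin over WT library 80. The other 8 deposited 3p sequences had means of 1.26 to 52.4 CPM, led by let-7b-3p_1ss22CT, and let-7c-1-3p was the lowest.

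**Figure D1:**
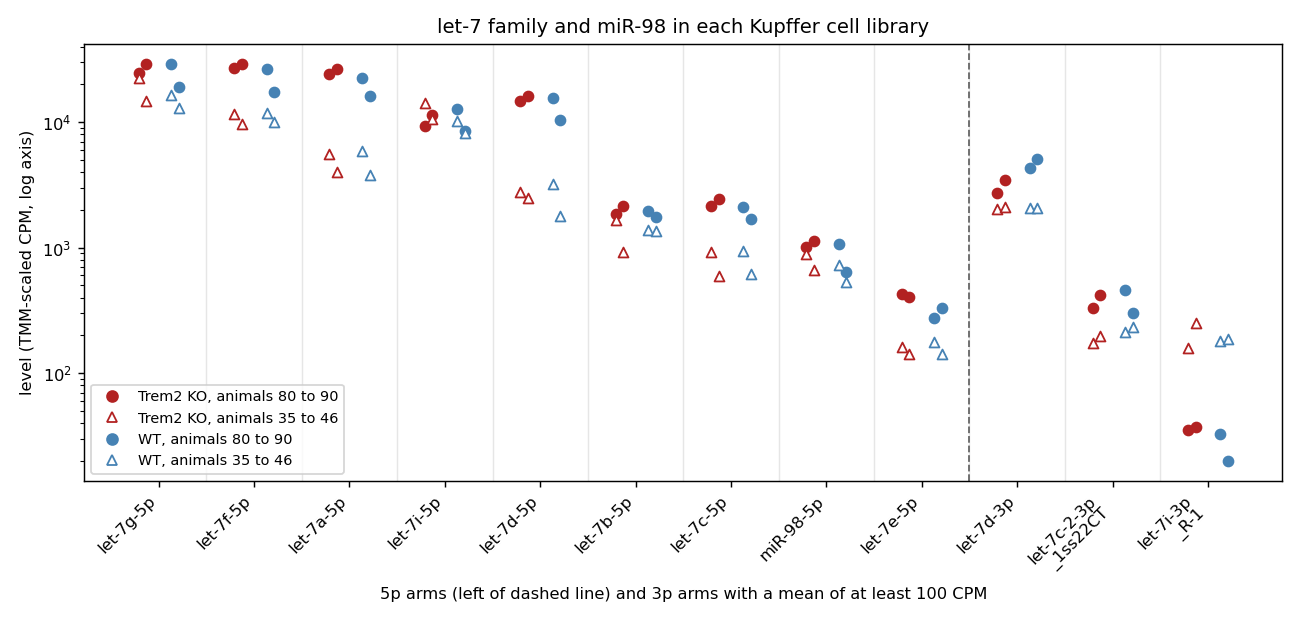
Level of each 5p member and of the 3p strands with a mean of at least 100 CPM, 1 point per library, on a log axis of TMM-scaled CPM; red is Trem2 KO, blue is WT, filled circles are animals 80 to 90 and open triangles are animals 35 to 46. For let-7a-5p and let-7d-5p the circles stand well above the triangles in both genotypes, for let-7i-5p they intermingle, and for let-7i-3p_R-1 the triangles are on top.

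The comparison of KO with WT addressed whether loss of Trem2 altered the family in Kupffer cells. No member changed past an adjusted p of 0.05 in the edgeR quasi-likelihood test with Benjamini-Hochberg adjustment over all 607 tested sequences. The background was the same, with 0% of all tested sequences called (2 at an unadjusted p under 0.05, of which 0 were members). Of the 20 member sequences 19 passed the filter on low counts, and let-7c-1-3p did not. In bulk samples, fewer cells of a type and less RNA per cell cannot be told apart. The p-values measure the spread between these libraries, each from 1 numbered animal.

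Of the 19 tested members 14 had a higher level and 5 a lower level in KO libraries, with a median log2 difference (KO minus WT) of 0.20, against -0.03 over all tested sequences. Of all tested sequences 46.8% were higher in KO. Without KO library 90, 7 of 19 were higher and the median was -0.09, against -0.08 over all tested sequences. That fit held no number range term, and its ranges were unbalanced between genotypes. With all libraries and the number range as a term, 14 of 19 were higher, with a median of 0.17, against -0.07 over all tested sequences, of which 44.2% were higher. With genotype as the only term and all libraries, all 9 of the 5p members were on the higher side, with a median of 0.24, and 5 of the 10 tested 3p members. In that fit each of the 19 differences was smaller than its own standard error, and the plot of differences shows their intervals. With the number range as a term some differences exceeded their standard errors, among them miR-98-5p (0.32 ± 0.24) and let-7d-3p (-0.28 ± 0.21). Of the 19 members 0 were called in that fit.

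Of the abundant members, let-7g-5p averaged 22687 ± 6009 CPM in KO and 19460.1 ± 6943 CPM in WT libraries (SD, n = 4 each). Its log2 difference was 0.23 ± 0.34 (SE; 95% interval -0.52 to 0.99; edgeR adjusted p 0.9997). For let-7i-5p the means were 11434 ± 2096 CPM in KO and 9913 ± 2109.9 CPM in WT, a log2 difference of 0.22 ± 0.28 (-0.39 to 0.83). This was the narrowest of the 5p intervals. For miR-98-5p the means were 923 ± 194 CPM in KO and 746 ± 235 CPM in WT, a log2 difference of 0.32 ± 0.33 (-0.42 to 1.06).

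The 5p members with the largest differences between the number ranges, let-7d-5p and let-7a-5p, had the widest intervals between genotypes among the 5p members. For let-7a-5p the means were 15007 ± 11860.4 CPM in KO and 12059 ± 8763 CPM in WT, a log2 difference of 0.32 ± 0.73 (-1.30 to 1.95). For let-7d-5p they were 9093 ± 7472 CPM in KO and 7739 ± 6451 CPM in WT, a log2 difference of 0.24 ± 0.80 (-1.55 to 2.03). With the number range as a term in the fit, the let-7a-5p difference was 0.20 ± 0.24 (-0.33 to 0.73) and the let-7d-5p difference was 0.18 ± 0.25 (-0.36 to 0.73). That term lowered the common dispersion to 0.279, against 0.586 without it, and 0 of 607 sequences were called (0%), with 17 at an unadjusted p under 0.05.

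Log2 differences of the remaining 5p members were 0.24 ± 0.46 (SE) for let-7f-5p, 0.31 ± 0.48 for let-7e-5p, 0.20 ± 0.54 for let-7c-5p and 0.05 ± 0.33 for let-7b-5p. On the 3p side, let-7d-3p averaged 2582 ± 656 CPM in KO and 3378 ± 1547 CPM in WT libraries (SD), a log2 difference of -0.37 ± 0.38 (SE; -1.23 to 0.49). This was the lowest p of a member with a lower level in KO (unadjusted p 0.357). The log2 difference was -0.09 ± 0.42 for let-7c-2-3p_1ss22CT and 0.22 ± 0.86 for let-7i-3p_R-1. For none of the 19 did the KO and WT libraries separate completely. Over all tested sequences 0.329% separated with KO higher and 0.659% with KO lower.

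Within each range the genotypes were compared again, with 2 KO and 2 WT libraries each. In animals 80 to 90, 0 of 731 sequences were called (0%; 34 at an unadjusted p under 0.05), and 15 of 20 tested members were higher in KO, with a median of 0.27. Over all 731 sequences 47.3% were higher in KO, with a median of -0.05. In animals 35 to 46, 0 of 559 were called (0%; 9 at an unadjusted p under 0.05), and 12 of 19 were higher, with a median of 0.04. Over all 559 sequences 53.3% were higher in KO, with a median of 0.02. The let-7d-3p log2 difference was -0.55 ± 0.27 in animals 80 to 90 and 0.07 ± 0.23 in animals 35 to 46. A test of the difference between the ranges in their genotype effect (the interaction term in edgeR) gave -0.63 ± 0.39 for let-7d-3p, the smallest member p, with an adjusted p of 0.956. The interaction was called for 0 of 607 sequences (0%), with 28 at an unadjusted p under 0.05, none of them a member.

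Several members differed between the number ranges. With genotype in the model, 9 of the 19 tested members passed the threshold between animals 80 to 90 and animals 35 to 46. Of these, 8 were higher in animals 80 to 90 (5 of the 5p and 3 of the 3p members), against a background of 17.3% of all tested sequences called higher, and 1 was lower, against 14.7% called lower. Either way, 194 of 607 sequences were called (32.0%). The median log2 difference (animals 80 to 90 minus animals 35 to 46) was 0.90 over the 19 members and 0.01 over all tested sequences. The ranges were compared because they were already known to separate the libraries, so the counts describe how the members vary.

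The largest differences among the 5p members were those of let-7d-5p and let-7a-5p. For let-7d-5p the means were 14263 ± 2671 CPM in animals 80 to 90 and 2569 ± 596 CPM in animals 35 to 46 (SD, n = 4 each), a ratio of 5.55. Its log2 difference was 2.49 ± 0.26 (SE; edgeR adjusted p 0.000155). For let-7a-5p the means were 22248 ± 4422 CPM and 4817 ± 1064 CPM in the same order, a ratio of 4.62 and a log2 difference of 2.22 ± 0.25 (adjusted p 0.000236). Both were higher in 4 of 4 libraries of animals 80 to 90 than in any of the others.

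Smaller rises were called for let-7c-5p, at 1.47 ± 0.24 on the log2 scale (adjusted p 0.0019), let-7f-5p, at 1.23 ± 0.22 (0.00263), and let-7e-5p, at 1.21 ± 0.22 (0.00315). Short of the threshold were let-7g-5p, at 0.65 ± 0.24 (adjusted p 0.0582), let-7b-5p, at 0.56 ± 0.22 (0.0742), and miR-98-5p, at 0.47 ± 0.24 (0.150). Each of let-7g-5p, let-7b-5p and miR-98-5p passed it under at least 1 other scaling, and let-7g-5p also without WT library 82 (adjusted p 0.04415). The value of let-7i-5p was -0.00112 ± 0.236, with a 95% interval of -0.53 to 0.53 and an adjusted p of 0.999, and its sign turned under other scalings. That interval lies wholly below those of let-7a-5p (1.66 to 2.78) and let-7d-5p (1.91 to 3.07), although the difference between members was not itself tested.

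Of the 3p members, let-7d-3p was higher in animals 80 to 90, at 3887 ± 1026 CPM against 2073 ± 27.3 CPM in animals 35 to 46 (log2 difference 0.90 ± 0.21, adjusted p 0.00901). Its partner strand let-7d-5p thus differed by 2.49 and let-7d-3p by 0.90 on the log2 scale. The log2 difference was 0.93 ± 0.23 for let-7c-2-3p_1ss22CT (adjusted p 0.0129) and 1.06 ± 0.32 for let-7b-3p_1ss22CT (0.0293). The first of these calls was lost without KO library 46 (adjusted p 0.0519) or KO library 90 (0.0508). The call of let-7b-3p_1ss22CT was lost without any 1 of KO libraries 46, 88 and 90 and WT libraries 35, 37 and 82 (adjusted p 0.0536 to 0.0989). In the other direction, let-7i-3p_R-1 averaged 31.1 ± 7.75 CPM in animals 80 to 90 and 194 ± 39.1 CPM in animals 35 to 46, a log2 difference of -2.62 ± 0.29 (adjusted p 0.000236). Complete separation of the ranges was seen for 10 of the 19 members with animals 80 to 90 higher, against 21.4% of all tested sequences, and for 1 with animals 80 to 90 lower, against 18.8%.

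**Figure D2:**
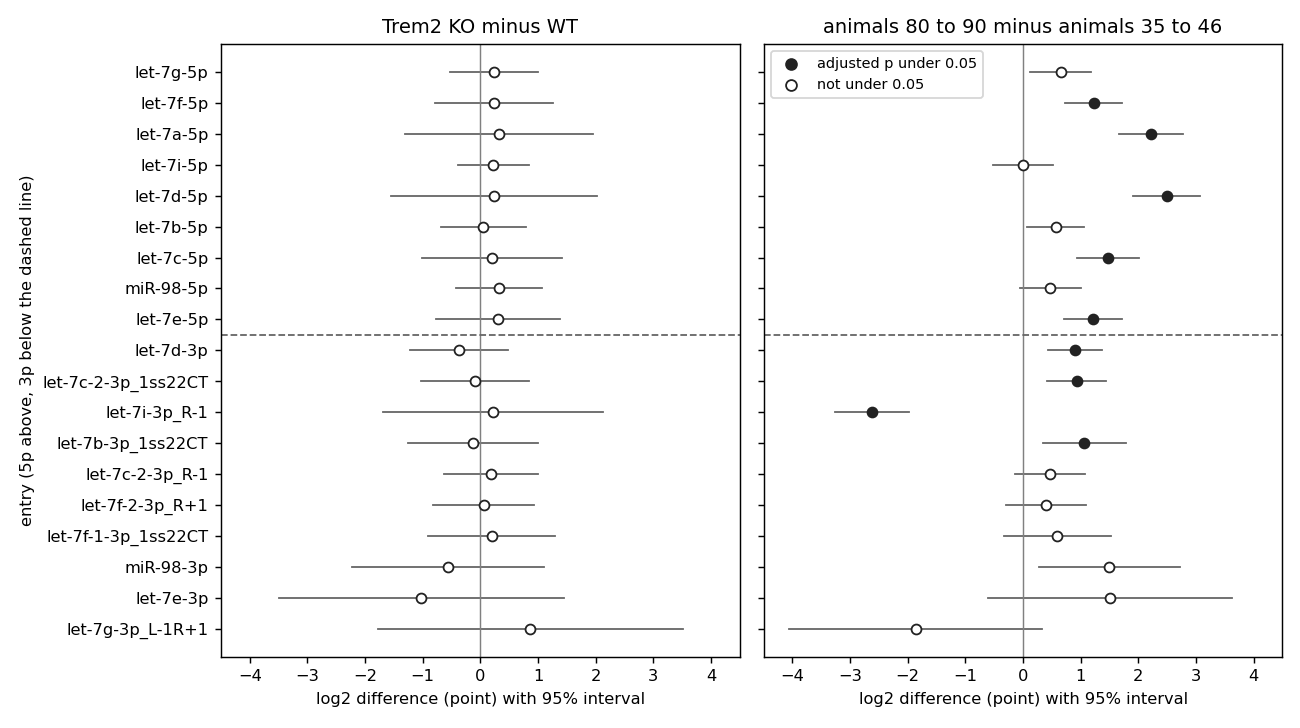
Log2 difference of each of the 19 tested members, KO minus WT on the left and animals 80 to 90 minus animals 35 to 46 on the right, with 95% intervals from the edgeR fits; filled points have an adjusted p under 0.05. All intervals on the left include 0, while 9 points on the right are filled, from -2.62 for let-7i-3p_R-1 to 2.49 for let-7d-5p.

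Because members differed in how far they moved, the make-up of the summed 5p arms was not the same in the ranges. The share of let-7d-5p in the family's 5p counts was 13.8% ± 0.215 in animals 80 to 90 and 5.29% ± 0.841 in animals 35 to 46 (SD, n = 4 each). The share of let-7a-5p was 21.6% ± 1.24 in animals 80 to 90 and 9.90% ± 1.12 in animals 35 to 46. In turn let-7i-5p took 10.3% ± 1.19 in animals 80 to 90 and 22.2% ± 2.07 in animals 35 to 46, and let-7g-5p took 24.8% ± 1.07 and 34.0% ± 2.10. None of these 4 shares overlapped between the ranges. Nor did those of let-7c-5p (1.88% to 2.24% in animals 80 to 90, 1.36% to 1.85% in animals 35 to 46). For miR-98-5p the shares were 0.848% to 0.961% and 1.35% to 1.53% in the same order, also without overlap. The shares of let-7b-5p and let-7e-5p overlapped. The share of let-7f-5p, the G12A member, was 24.2% ± 1.07 in animals 80 to 90 and 22.5% ± 2.55 in animals 35 to 46, with overlap.

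Among the 5p members, let-7a-5p ranked 3, let-7d-5p 4 and let-7i-5p 5 in each library of animals 80 to 90. In each library of animals 35 to 46 let-7g-5p ranked 1, let-7a-5p 4 and let-7d-5p 5. Between genotypes the make-up was close. The share of let-7g-5p was 29.6% ± 6.66 in KO and 29.2% ± 4.07 in WT libraries, that of let-7a-5p 15.9% ± 7.73 in KO and 15.6% ± 5.83 in WT, and that of let-7d-5p 9.54% ± 5.07 in KO and 9.59% ± 4.88 in WT. Shares of 1 sum are not independent of each other, and no test was made on them. Near-identical 5p sequences can limit how exactly reads are split, which was not tested. Only 13.9% of the 72 values of the 5p members were whole numbers (tolerance 1e-06). This compares with 85.4% of 82 values of the 3p members, most of them lower in level, and 84.7% of 6131 values for sequences with 1 entry.

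**Figure D3:**
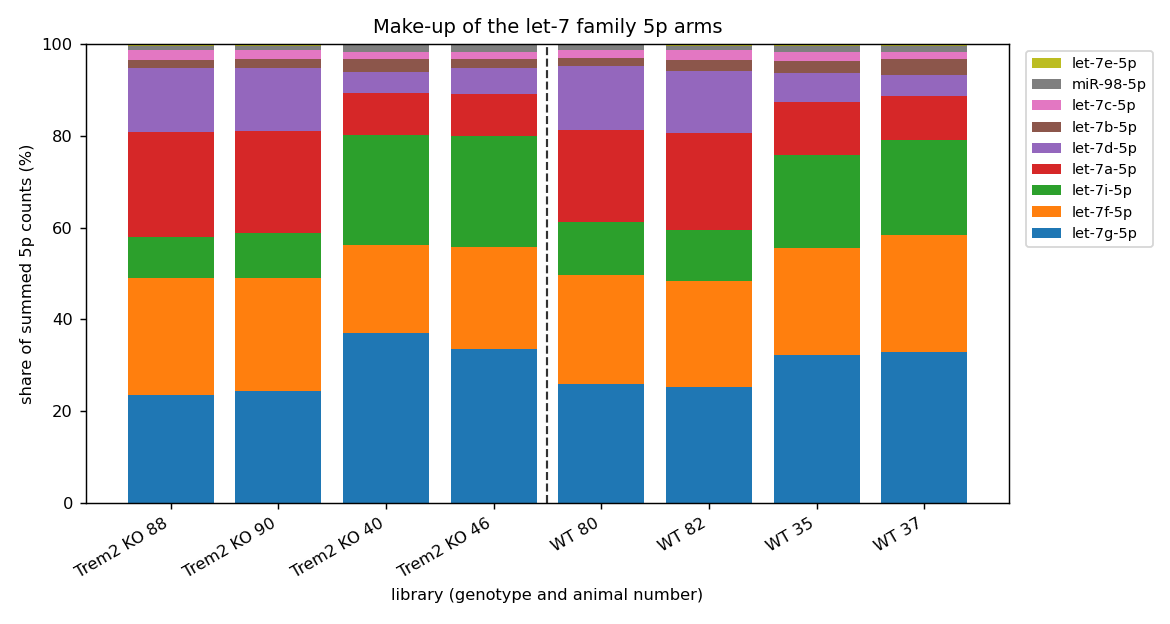
Share of each 5p member in the summed 5p counts of the family (%), 1 stacked bar per library, KO libraries left of the dashed line and WT libraries right of it. The let-7a-5p and let-7d-5p segments are wider in libraries 88, 90, 80 and 82, where let-7d-5p takes 13.6% to 14.1%, and the let-7i-5p and let-7g-5p segments are wider in libraries 40, 46, 35 and 37.

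The 2 strands of a hairpin can be compared within a library, where scaling cancels. For let-7d the ratio of 5p to 3p counts was 5.45 and 4.70 in KO libraries 88 and 90 and 3.65 and 2.03 in WT libraries 80 and 82. It was 1.37 and 1.18 in KO libraries 40 and 46 and 1.53 and 0.872 in WT libraries 35 and 37. The ratio was thus higher in each library of animals 80 to 90, and in WT library 37 the 3p strand outnumbered the 5p strand.

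For let-7i the ratio was 268 and 308 in KO libraries 88 and 90 and 392 and 426 in WT libraries 80 and 82. It was 91.1 and 42.6 in KO libraries 40 and 46 and 56.7 and 43.6 in WT libraries 35 and 37. Its 3p counts ranged from 95 to 560 per library. For let-7b the order was the opposite, at 23.4 to 29.4 in animals 80 to 90 and 34.5 to 48.4 in animals 35 to 46. The ratio for miR-98, with 7 to 214 counts of its 3p strand, was 23.0 to 60.4 in animals 80 to 90 and 42.7 to 186 in animals 35 to 46, with overlap. The 3p strands of let-7e and let-7g were at 0 in 1 library each, so no ratio was formed. These ratios were described and not tested.

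**Figure D4:**
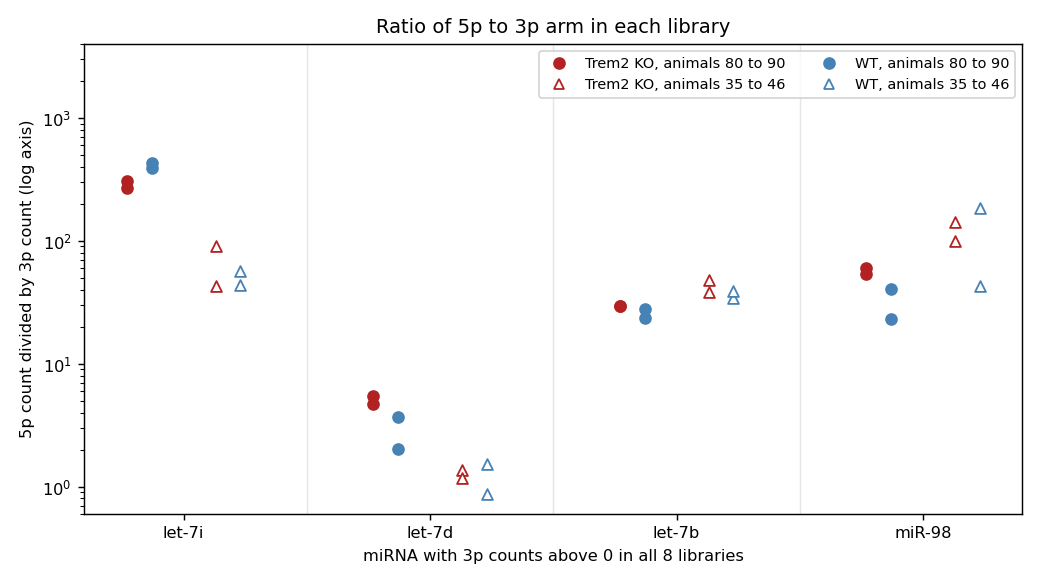
Ratio of 5p to 3p counts in each library on a log axis for the 4 miRNAs with 3p counts above 0 in all 8 libraries and 1 pair of arms each; colours and symbols stand for genotype and number range. The circles of animals 80 to 90 lie above the triangles of animals 35 to 46 for let-7i and let-7d and below them for let-7b.

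Some let-7 hairpins share a primary transcript with miR-99, miR-100 and miR-125 family members, which have other seeds. Of 5 such partner names, 4 sequences were tested, because the entries named for miR-99a-5p and miR-100-5p held the same sequence. Between the ranges, miR-125a-5p_R-2, encoded beside let-7e, was higher in animals 80 to 90 by a log2 difference of 1.21 ± 0.19 (edgeR adjusted p 0.00159). That of let-7e-5p itself was 1.21 ± 0.22. The other partner of let-7e, miR-99b-5p, had a log2 difference of 0.04 ± 0.19. For miR-125b-5p, encoded beside let-7a-2 and beside let-7c-1, the log2 difference between the ranges was 0.67 ± 0.21 (adjusted p 0.0333), and for the shared miR-99a-5p sequence it was -0.13 ± 0.20. Between KO and WT libraries 0 of the 4 partner sequences were called, and miR-125b-5p had the largest log2 difference, -0.70 ± 0.35.

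The summed level of the 5p members was compared with 160 other mouse-named entries of at least 100 CPM, as log2 levels centred on their mean over the 8 libraries. The smallest root mean square differences belonged to miR-223-3p_R+1, a myeloid miRNA (0.126 on the log2 scale), miR-16-5p (0.159) and miR-26a-5p (0.182), against a median of 0.701. In animals 80 to 90 and animals 35 to 46, miR-223-3p_R+1 averaged 6316 ± 1263 CPM and 3109 ± 489 CPM, and miR-16-5p averaged 10066 ± 1746 CPM and 4641 ± 1239.8 CPM. All of these values share the same 8 libraries and the same scaling.

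Markers of other cell types and myeloid markers also differed between the number ranges, and 3 of the 6 lists held log2 differences of both signs. The erythroid list (3 of 3 found) summed to 626 to 2391 CPM in animals 80 to 90 and 5003 to 7327 CPM in animals 35 to 46. Called lower in animals 80 to 90 were miR-451a_R-1 (log2 difference -3.28 ± 0.45, edgeR adjusted p 0.000652) and miR-486a-5p (-1.23 ± 0.28, 0.00788). The difference of miR-144-3p was -0.57 ± 0.57, not called. The stellate and mesenchymal list (3 of 4 found) summed to 2839.5 to 3319 CPM in animals 80 to 90 and 4929 to 7736 CPM in animals 35 to 46. Most of that sum was miR-143-3p_R+1 (log2 difference, animals 80 to 90 minus animals 35 to 46, -1.01 ± 0.20, edgeR adjusted p 0.00419), while miR-214-3p_R-1 differed in the opposite direction (2.13 ± 0.43, adjusted p 0.0046). For the epithelial list (4 of 4) the sums were 401 to 726 CPM in animals 80 to 90 and 226 to 347 CPM in animals 35 to 46, with no overlap. Of its members miR-200c-3p was called (1.32 ± 0.31, adjusted p 0.00918), and the log2 difference was 0.66 for miR-200b-3p, -0.19 for miR-200a-3p and -0.30 for miR-141-3p_R-1.

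The sums of the hepatocyte list (4 of 4) were 9103 to 14333 CPM in animals 80 to 90 and 12162 to 139531 CPM in animals 35 to 46. The highest was that of WT library 37. Most of the sum was miR-122-5p_R+1, called lower in animals 80 to 90 (log2 difference -2.39 ± 0.69, edgeR adjusted p 0.0244). The other hepatocyte entries had differences of -1.28 to -0.37, none called. The myeloid list (6 of 6), at 92012 to 170402 CPM and 112480 to 134884 CPM, overlapped between the ranges, as did the endothelial list (2 of 2). The myeloid sum was mostly miR-146a-5p (log2 difference -0.27 ± 0.29, not called). Of the 6 myeloid markers, 3 were called higher in animals 80 to 90: miR-342-3p (1.51 ± 0.27, adjusted p 0.0025), miR-223-3p_R+1 (1.05 ± 0.23, 0.00697) and miR-142a-5p_L+2R-1 (0.83 ± 0.19, 0.00978). The log2 difference was -0.59 for miR-511-3p and -0.60 for miR-142a-3p_R-1, neither called. No marker found was at 0 in any library. Between genotypes the endothelial sums were 12064 to 17786 CPM in KO and 15540.5 to 19172 CPM in WT libraries. The part of these markers in the differences between ranges was not tested. Library totals overlapped between the ranges, at 2607271 to 9443992 counts in animals 80 to 90 and 2129942 to 3809016 counts in animals 35 to 46.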

How the data were processed

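Small RNA of flow-sorted Kupffer cells was sequenced from 4 KO and 4 WT mice with TruSeq small RNA kits from total RNA, per the labels' protocols. How reads were trimmed and aligned, and to which database and build, is not given in the sources used here. Raw columns of the authors are expected counts, as the deposited headers and partly fractional values show. Their normalized columns are a deposited signal, equal in each library to the raw value times 1 constant.

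Members, marker lists and the comparison of number ranges were chosen with earlier results of these data known. Groups follow the genotype in the labels, and number ranges follow the animal numbers in the sample titles. Members named in full were the leading 5p entry of each stem and any 3p entry with a mean of at least 100 CPM. Other entries are given by counts, with at most 4 named for the highest level or smallest p.

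Expected counts were rounded. Sequences under several names (40 sequences, 81 entries) entered the fits once, as planned, where their 8 values were identical. The values later showed that such entries hold reads divided between them: 46.5% of 228 single values were whole numbers, against 86.4% once summed. Levels, shares and ratios therefore use the sum, and a fit on summed entries was added as an alternative after seeing the data. Entries were filtered with filterByExpr and scaled by TMM in edgeR 4.0.16 (R 4.3.3), and tested over the whole table with the quasi-likelihood test at a Benjamini-Hochberg adjusted p of 0.05. Standard errors were derived from the F statistic. Levels are CPM on TMM-adjusted library sizes, with SDs between libraries. The script for the fits was tested on simulated data. Alternatives were no filter, at least 10 counts in at least 4 libraries, DESeq2 size factors, no scaling, DESeq2 1.42.0, entries not merged, mouse-named entries, limma-trend (limma 3.58.1) on the deposited normalized signal (log2, 1 added), the number range as a term, each range alone, and leaving out each library. Shares have Wilson 95% intervals (scipy 1.17.1).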

Additional observations from a re-analysis of the deposited data

Results flagged for a closer look

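Of 40 groups of 4 libraries examined (20 member sequences in each genotype), 1 held a library far from the rest, where chance alone gives about 1 in 20, or 2 of 40. That rate assumes 4 libraries that differ by chance only. Each genotype group mixed both number ranges, so the rate does not hold for members that differ between them, and nothing is concluded from the count. In WT library 80, let-7f-2-3p_R+1, the 3p strand of the let-7f hairpin beside miR-98 on chromosome X, stood at 51.0 CPM, against 31.5 to 32.2 CPM in the other WT libraries. In KO libraries it ranged from 32.2 to 47.7 CPM. It was not called in either comparison.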

How the results depend on the processing

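No paired analysis was possible because KO and WT animals share no numbers in the labels. Counts of members called were within 1.5 times of those reported under every alternative run: 0 between KO and WT throughout, and 7 to 11 higher and 1 lower between the number ranges. When libraries were left out 1 at a time, 6 to 8 members were called higher and 1 lower between ranges. Over all tested sequences, those fits called from 71 of 680 higher (without WT library 37) to 113 of 613 (without WT library 80). Between genotypes, DESeq2 called 0 (5 at an unadjusted p under 0.05) and limma-trend 0 (3). The summed 5p level kept its direction in both comparisons. Between ranges, let-7g-5p passed with DESeq2 size factors, no scaling, DESeq2, mouse-named entries and limma-trend (adjusted p 0.00963 to 0.0477), let-7b-5p under the last 4 of these, and miR-98-5p with no scaling (0.0479). The let-7b-3p_1ss22CT call was lost with no filter (0.0577). No scaling and mouse-named entries moved the median of all sequences between ranges to 0.17 and 0.16, and no filter to -0.36.

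The let-7i-5p log2 difference between ranges turned to 0.046 (no filter), 0.0045 (at least 10 counts in at least 4 libraries), 0.036 (DESeq2 size factors, and DESeq2), 0.11 (no scaling), 0.021 (mouse-named entries) and 0.031 (limma-trend), all inside its interval. Between genotypes, animals 35 to 46 alone gave -0.032 for let-7b-5p, -0.017 for let-7e-5p and 0.066 for let-7d-3p, and animals 80 to 90 alone gave 0.044 for let-7c-2-3p_1ss22CT. Fits between genotypes with 1 library left out held no number range term, so each also left the ranges unbalanced between KO and WT. Leaving out each library in turn gave -0.11 to 0.80 for let-7a-5p, -0.12 to 0.21 for let-7b-5p, -0.13 to 0.48 for let-7c-5p, -0.21 to 0.82 for let-7d-5p and -0.037 to 0.55 for let-7f-5p. It gave -0.36 to 0.17 for let-7c-2-3p_1ss22CT, -0.39 to 0.11 for let-7b-3p_1ss22CT and -0.48 to 0.64 for let-7i-3p_R-1, and -0.22 to 0.13 for let-7i-5p between ranges. The causes were not tested. With genotype as the only term and 4 libraries a group, each member's difference was smaller than its standard error.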

Other observations

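Beyond the named members, 5 other sequences of the table carried the same seed and together held 1.85% of all seed-carrying counts. The most abundant was let-7j_R-1_1ss8TG, which is the let-7i-5p sequence with 1 further base at its 3′ end. It averaged 1437 ± 311 CPM in KO and 1416 ± 654 CPM in WT libraries (SD, n = 4 each). It averaged 1695 ± 508 CPM in animals 80 to 90 and 1157 ± 272 CPM in animals 35 to 46, with overlap. The entry cfa-let-7a_R+2, which begins with the let-7a-5p sequence, stood at 11.7 to 42.3 CPM in animals 80 to 90 and 0 to 10.7 CPM in animals 35 to 46.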
